A study of Homo sapiens with 35 samples.

Results

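The replication-dependent histone genes encode the linker histone H1 and the core histones H2A, H2B, H3 and H4 that package newly made DNA. They were taken as every gene whose current symbol is H1-1 to H1-5, or begins with H2AC, H2BC, H3C or H4C and a number. Only array rows annotated to exactly 1 gene symbol were used, which gave 56 genes of the 18404 genes measured. They comprised 5 H1, 14 H2A, 17 H2B, 8 H3 and 12 H4 genes, of which 55 are protein coding and 1, H2BC19P, is a pseudogene. By the RefSeq gene table (assembly GRCh38.p14), 48 lie on chromosome 6, 7 on chromosome 1 and 1, H4C16, on chromosome 12. Another 14 of the 69 coding genes that the rule covers had no row of their own, because their probes are annotated to several histone genes at once. Members of a histone class are close copies of each other in sequence, so a row can also pick up RNA of its neighbours, and a value for 1 named gene is uncertain to that extent.

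All RNA came from HCT116, an established human colorectal carcinoma line kept in McCoy's 5A with serum, and was measured on Affymetrix whole-transcript gene arrays. Each line expressed 1 short hairpin: shControl a non-target sequence, shCDK8 and shCDK19 a sequence against the named kinase. Either kinase can serve as the cyclin-dependent kinase of the Mediator complex, a coactivator of RNA polymerase II. The 14 groups held 35 arrays. In normal growth, each of the 3 lines had 3 arrays. In the drug experiment, 2 arrays each were run on all 3 lines treated for 12 h with 5-fluorouracil (5FU), which inhibits thymidylate synthase, and 2 on shControl cells given DMSO, a common drug solvent. In the glucose experiment, shControl cells had 3 arrays after 24 h in high glucose DMEM and 3 after 24 h in low glucose DMEM, and shCDK8 and shCDK19 cells had 3 each in low glucose. Hypoxia meant 24 h in 1% oxygen, with 2 arrays for every line. No knockdown line in DMSO or high glucose, and no normoxic array of the hypoxia experiment, was analysed here. Each target was represented by 1 hairpin line, so an effect of losing the kinase and any other property of that line cannot be told apart. The labels do not say that replicates were separate cultures, so every p-value measures the spread between arrays, which may be technical.

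Replication-dependent histone genes are transcribed mainly in S phase, when the cell must pair its duplicated DNA with new histones. Most of their mRNAs end in a stem-loop instead of a poly(A) tail; the stem-loop binding protein SLBP attaches there and carries the mRNA through processing, translation and decay. The cyclin E-CDK2 substrate NPAT switches on the clustered genes at histone locus bodies, and the mRNAs are degraded quickly when DNA synthesis stops. Some members also make polyadenylated transcripts outside S phase or in differentiating cells. The labels name total RNA and the manufacturer's standard labelling; the primer, which decides how well RNA without a poly(A) tail is copied, is not given in the sources used here.

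Promoter sequence was available in the RefSeq promoter table (GRCh38.p14) for 50 of the 56 genes. Short motifs were searched on both strands of the 250 bases before the start. CCAAT, the box that NF-Y binds, was present in 43 of the 50, against 33% of all 27305 promoters of the same length, and it was found in every H1, H2A, H2B and H3 promoter searched but in 3 of 10 H4 promoters. The TATA box, searched as TATAAA, was present in 34 of 50 (11.1% of all). The octamer ATTTGCAT was present in 10 of 13 H2A and 13 of 16 H2B promoters and in no H1, H3 or H4 promoter (1.7% of all). The core of the H4 element that HINFP binds, searched as GGTCCG, was present in 9 of 10 H4 promoters, and in 1 each of the H2A, H2B and H3 promoters (9.3% of all). The 120 bases before the start of 6 genes on which the later comparisons turn are printed 5′ to 3′ on the gene's strand, with every match to these motifs, on either strand, in capitals. H1-4 (chr6:26156209-26156328, plus strand) and H4C4 (chr6:26189113-26189232, minus strand) are examples of an H1 and an H4 promoter. H2AC14 (chr6:27814778-27814897, minus strand) and H2BC14 (chr6:27814902-27815021, plus strand) are transcribed away from each other from adjacent windows. H2BC12 (chr6:27146859-27146978, minus strand) and H2BC21 (chr1:149886683-149886802, minus strand) are H2B genes that each rose in a comparison in which H2BC14 fell.
H1-4: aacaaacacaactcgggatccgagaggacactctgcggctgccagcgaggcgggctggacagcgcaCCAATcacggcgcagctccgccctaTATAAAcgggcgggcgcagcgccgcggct
H2AC14: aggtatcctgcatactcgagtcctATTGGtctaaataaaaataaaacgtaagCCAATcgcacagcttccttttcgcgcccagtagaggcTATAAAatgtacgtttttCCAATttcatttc
H2BC14: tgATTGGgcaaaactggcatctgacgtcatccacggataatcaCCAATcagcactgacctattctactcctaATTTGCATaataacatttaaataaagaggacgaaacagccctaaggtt
H2BC12: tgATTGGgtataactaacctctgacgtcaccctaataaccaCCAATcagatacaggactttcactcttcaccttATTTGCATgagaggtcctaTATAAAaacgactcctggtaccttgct
H2BC21: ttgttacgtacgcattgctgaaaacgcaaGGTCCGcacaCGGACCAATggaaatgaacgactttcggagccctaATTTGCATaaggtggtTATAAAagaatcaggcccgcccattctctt
H4C4: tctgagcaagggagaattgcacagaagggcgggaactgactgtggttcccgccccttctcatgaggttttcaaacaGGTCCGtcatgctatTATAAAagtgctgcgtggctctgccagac
In the H2BC21 window the second HINFP core match, on the other strand, and the CCAAT match share bases, so they form a single capital run. A match is a string of letters in a window and was not tested as a site of binding.

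A check of the labels found the targets lower on their own lines. The row that measures CDK8, which it shares with ADRA1B, lay between 7.58 and 8.53 on the 10 shCDK8 arrays and between 9.79 and 10.95 on the 15 shControl arrays (log2 level). CDK19 was lower on all shCDK19 arrays than on all shControl arrays in 4 of 4 conditions, although its ranges over all conditions overlapped (6.57 to 8.35 against 7.63 to 9.84). The epithelial markers EPCAM, KRT8, KRT18 and KRT19 had median levels of 12.16, 13.11, 12.7 and 12.35, and the 9 epithelial markers were above the floor on all arrays. DCN and LUM, of fibroblasts, and PTPRC, of leukocytes, had medians of 4.32, 4.32 and 4.37, where 4.32 is the lowest value the files hold. Other markers of those cells were not at the floor, with medians up to 8.73 for ACTA2 and 10.17 for CD68. Array medians ran from 7.136 to 7.385. Replicates correlated at 0.992 or more over all rows (Pearson r), except that shCDK8 replicate 1 in normal growth correlated at 0.9867 and 0.9892 with its group and the 2 shControl arrays in hypoxia at 0.9761 with each other.

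Levels are log2 values as deposited, and a difference of 1 is a 2-fold change. They are relative to the other genes of the array, and levels of different genes are not compared, because each row has its own probes. H2AC8 lay at the floor on 32 of 35 arrays and H2AC13 on 34 of 35; the other 54 genes were above the floor on every array. Of the 56 genes, 21 had a mean above 8 over all arrays. Within each class, H1-4, H2AC21, H2BC14, H3C2 and H4C3 had the row with the highest mean and are described in every condition.

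Relative to their own means, the 56 genes were highest in DMSO. They were lowest in shCDK8 cells in low glucose and in shControl and shCDK19 cells in 5FU. After each gene was set relative to its own mean over 35 arrays, the median histone gene stood at 0.575 and 0.610 on the 2 DMSO arrays, above every other array. It stood between -0.315 and -0.254 on the 3 shCDK8 arrays in low glucose, at -0.245 and -0.242 on the shControl arrays in 5FU and at -0.266 and -0.212 on the shCDK19 arrays in 5FU; the shCDK19 range overlapped both others, and those 2 did not overlap each other. The shCDK8 arrays in 5FU stood higher, at -0.031 and -0.007. In normal growth shControl lay between 0.117 and 0.228 and shCDK19 between 0.178 and 0.214, which overlap, while shCDK8 lay between -0.048 and -0.008, below both. DMSO was the highest group for 43 of the 56 genes. The lowest group was low glucose with shCDK8 for 17 genes, 5FU in shControl for 15 and 5FU in shCDK19 for 9.

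**Figure D1:**
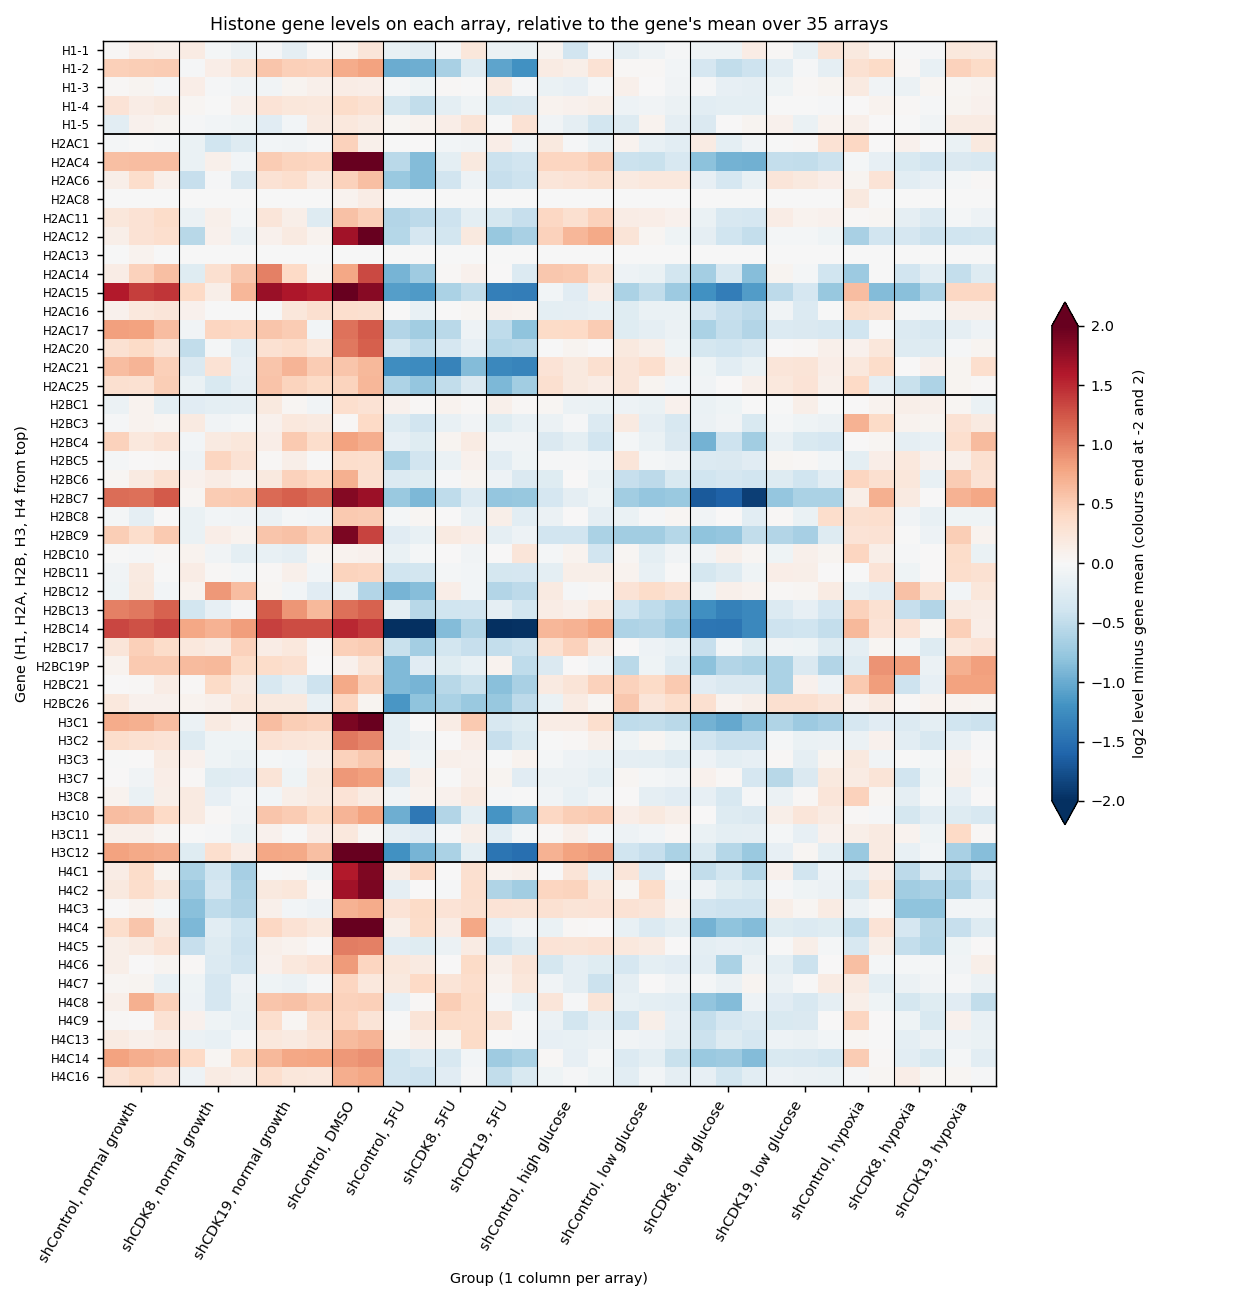
Level of each of the 56 histone genes on each of the 35 arrays, as log2 level minus the gene's mean over all arrays (red higher, blue lower, colours end at -2 and 2). Columns are arrays grouped by line and condition and rows are genes from H1 at the top to H4 at the bottom. The DMSO columns are the reddest, and H2BC14, H2BC7, H2AC15 and H3C12 show the widest swings, while H2AC8 and H2AC13 stay blank because they lie at the floor on most arrays.

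Most histone genes were lower in 5FU than in DMSO in shControl cells. Of 56 genes, 41 fell and 0 rose at an adjusted p under 0.05 (limma, Benjamini-Hochberg over all genes), where 11.5% of all genes were called, 7.17% higher and 4.29% lower. The median difference over the histone genes was -1.015 on the log2 scale, against -0.02 over all genes, and 28 of the genes fell at least 2-fold. The fall was called in 20 of the 21 genes with a mean above 8 and in 21 of the other 35. Of the 8 members listed as also making polyadenylated transcripts 7 fell (median -0.91), and of the other 48, 34 fell (median -1.07). That list was drawn up with earlier results of these data known. The 13 array rows annotated only to several histone genes had a median of -1.45, with 11 below 0. With array medians subtracted the histone count stayed at 41, while the calls over all genes went from 1320 higher and 789 lower to 2085 and 778. Without shControl 5FU replicate 1 the histone count was 24, with the remaining array assumed to vary like the other groups, as in every such case below. In bulk RNA, fewer cells expressing a gene and less of its RNA per cell cannot be told apart.

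Among the linker histones, 2 of 5 fell. H1-2 measured 10.18 and 10.25 in DMSO and 8.44 and 8.46 in 5FU, which did not overlap; the difference was -1.76 ± 0.13 (SE, n = 2 arrays per group, adjusted p = 0.0032, limma). H1-4 measured 13.95 and 13.89 in DMSO and 13.23 and 13.09 in 5FU (-0.76 ± 0.069, adjusted p = 0.0051). H1-4 lies near 14.2877, the highest value the files hold, and whether this shortens its change was not tested. H1-1, H1-3 and H1-5 differed by -0.34, -0.20 and -0.14 and did not pass the test.

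Among the H2A genes, which pair with H2B in the dimers of the nucleosome, 11 of 14 fell, with a median difference of -1.45. H2AC15 measured 12.47 and 12.31 in DMSO and 9.38 and 9.35 in 5FU, a difference of -3.03 ± 0.079 (adjusted p = 0.00052, limma). H2AC4 measured 10.84 and 11.03 in DMSO and 8.14 and 7.82 in 5FU. Neither gene overlapped between the groups, and both lay more than 2 log2 units lower in 5FU. H2AC21 measured 12.26 and 12.35 in DMSO and 10.46 and 10.44 in 5FU (-1.86 ± 0.15, adjusted p = 0.0040, limma). The 3 H2A genes that were not called were H2AC1, H2AC8 and H2AC13.

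Among the genes for H2B, the partner of H2A, 13 of 17 fell (median difference -0.85). H2BC14 measured 13.81 and 13.72 in DMSO and 10.17 and 10.20 in 5FU, the largest fall of the 56 genes at 11.95-fold (-3.58 ± 0.098, adjusted p = 0.00052, limma). H2BC7 measured 11.95 and 11.81 in DMSO and 9.37 and 9.21 in 5FU. Both genes were far apart between the groups compared with the 0.16 or less that separated their replicates. H2BC12 measured 10.12 and 9.67 in DMSO and 9.33 and 9.42 in 5FU, did not overlap and did not pass the test (-0.53 ± 0.15, adjusted p = 0.090, limma), and it was the only gene with a mean above 8 that was not called. H2BC3, H2BC10 and H2BC19P were the others not called.

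In the RefSeq annotation 9 H2A genes sit head to head with an H2B gene. All 9 pairs are given here, and the 3 placed first were chosen after their values were seen. H2AC20 and H2BC21 differed by -1.55 ± 0.091 and -1.52 ± 0.11, and H2AC25 and H2BC26 by -1.25 ± 0.12 and -1.23 ± 0.18. Partners stood within their errors in both pairs, whereas H2AC14 stood at -1.86 ± 0.20 and H2BC14 at -3.58 ± 0.098. Partners also lay further apart than their errors in H2AC17 and H2BC17 (-1.79 ± 0.17 and -1.06 ± 0.086). The same held for H2AC6 and H2BC4 (-1.34 ± 0.11 and -0.97 ± 0.061) and for H2AC11 and H2BC11 (-1.09 ± 0.091 and -0.83 ± 0.045). H2AC1 and H2BC1 were close (-0.28 ± 0.13 and -0.26 ± 0.057). H2AC8 (-0.12) and H2AC13 (0.0) lay at the floor on most arrays. Their partners H2BC8 and H2BC13 stood at -0.52 ± 0.11 and -1.52 ± 0.13. The difference between partners was not tested, and their rows have different probes.

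Among the genes for H3, which with H4 forms the tetramer at the centre of the nucleosome, 6 of 8 fell. H3C12 measured 11.06 and 11.15 in DMSO and 7.61 and 7.89 in 5FU (-3.36 ± 0.16, adjusted p = 0.0015, limma). H3C2 measured 12.89 and 12.81 in DMSO and 11.65 and 11.72 in 5FU (-1.17 ± 0.081, adjusted p = 0.0028). H3C8 and H3C11 did not pass the test.

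Among the H4 genes, 9 of 12 fell (median difference -0.86). H4C4 measured 11.85 and 11.96 in DMSO and 9.87 and 10.13 in 5FU (-1.90 ± 0.21, adjusted p = 0.0076, limma). H4C3 measured 13.09 and 13.14 in DMSO and 12.68 and 12.78 in 5FU, a small but non-overlapping fall of -0.39 ± 0.056 (adjusted p = 0.015). H4C6, H4C7 and H4C9 did not pass the test.

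**Figure D2:**
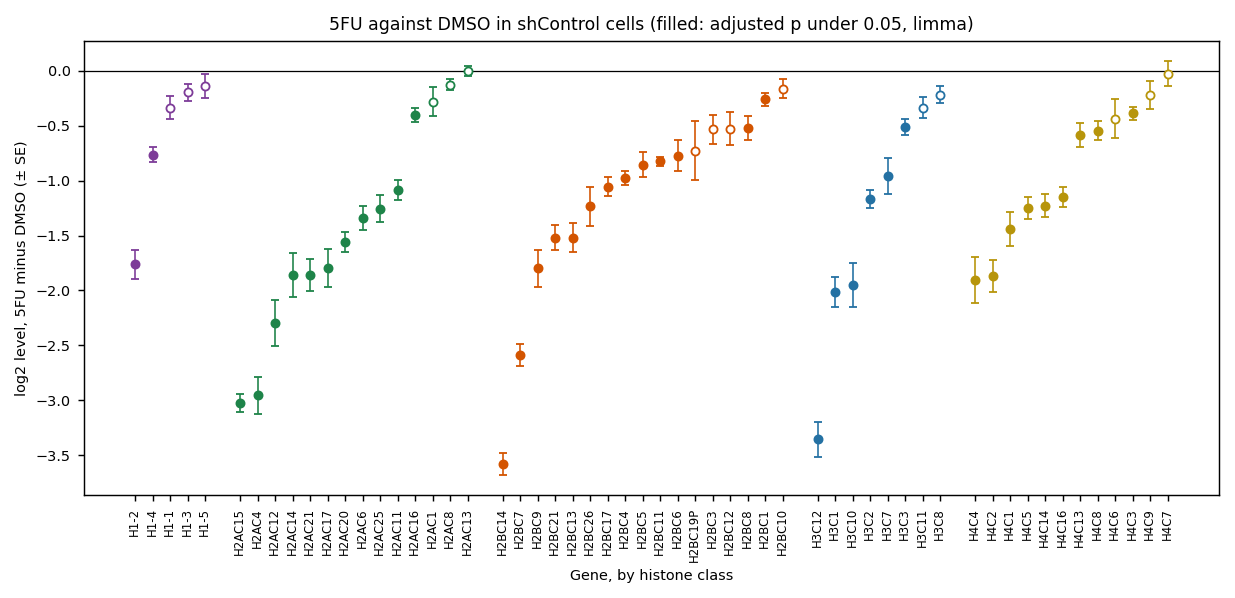
Difference in log2 level between 5FU and DMSO in shControl cells for each of the 56 genes (vertical axis, with its standard error), ordered within each class along the horizontal axis; 2 arrays per group. Filled points passed the test, and all 41 lie below 0, from H2BC14 at -3.58 upwards.

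The fall in 5FU was set beside genes of S phase, of histone mRNA handling and of histone exchange outside replication. Of 47 S phase genes, 4 were higher and 2 lower in 5FU than in DMSO, with a median difference of 0.06. ORC6 of the origin recognition complex (0.96 ± 0.091) and the sliding clamp PCNA (0.62 ± 0.060) rose, and the transcription factor E2F1 fell (-0.71 ± 0.053). Of 24 genes listed for histone mRNA synthesis and processing, 3 rose and 2 fell. The cyclins CCNE2 and CCNE1 were 1.43 and 0.95 higher on the log2 scale. CPSF1, of the cleavage and polyadenylation specificity factor, was 0.46 lower (-0.46 ± 0.072). SLBP and NPAT measured 0.03 ± 0.057 and 0.06 ± 0.070 above DMSO and did not pass the test. Of 14 genes listed as replication-independent histones 3 fell: H2AX, whose product marks DNA breaks (-0.73 ± 0.077), H1-10 (-0.87 ± 0.058) and the testis histone H1-6 (-1.03 ± 0.20). How far H2AX RNA depends on replication was not tested. In shControl cells H1-6 averaged 5.45 in 5FU and 5.57 in normal growth, so its fall rests on the level in DMSO. H2AZ1, a variant deposited outside replication, measured -0.02 ± 0.074. Of 22 histone chaperones, 2 rose and 1 fell. CDKN1A, the p53 target that encodes a CDK inhibitor, rose by 1.43 ± 0.063 (adjusted p = 0.0015, limma).

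The size of the 5FU difference depended on the baseline. DMSO and normal growth arrays of shControl cells come from different experiments, so treatment and experiment cannot be told apart. Of the 56 genes 32 were higher and 0 lower in DMSO than in normal growth (adjusted p under 0.05, limma, all 35 arrays in 1 fit; 40.1% of all genes were called, 14.7% higher and 25.4% lower). The median histone gene stood 0.34 higher. With array medians subtracted 36 histone genes were higher and 0 lower, and the calls over all genes went from 2700 higher and 4681 lower to 4480 and 3898. With quantile normalization these were 29 and 0, and 3772 and 3857. H4C4 measured 10.12, 10.31 and 9.95 in normal growth and 11.85 and 11.96 in DMSO (1.78 ± 0.19, adjusted p = 6.9e-08), and H2AC4 measured 9.27, 9.29 and 9.30 against 10.84 and 11.03 (1.65 ± 0.093). H2BC14 measured 13.64, 13.57 and 13.66 in normal growth, only just below its DMSO arrays (0.14 ± 0.099, adjusted p = 0.27). Like those of H1-4, the H2BC14 levels in both groups lie near the highest value the files hold. Whether this shortens its changes was not tested. Of the other class representatives, H3C2 and H4C3 were each 0.70 higher in DMSO, H1-4 was 0.13 higher and H2AC21 did not pass the test (0.02 ± 0.13).

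A comparison of 5FU with normal growth in shControl cells, chosen after the data were seen, left 36 genes lower and 2 higher (limma; 40.3% of all genes were called, 15.9% higher and 24.3% lower), with a median of -0.51. This comparison shares its 5FU arrays with the one against DMSO. The H2A genes gave 11 of 14 lower and the H2B genes 14 of 17, while the H4 genes gave 4 of 12 lower and 2 higher. H2BC14 remained lower (-3.44 ± 0.099), as did H2AC15 (-2.59 ± 0.24). H4C4 measured 10.00 in 5FU and 10.13 in normal growth (-0.13 ± 0.19, adjusted p = 0.63), and H4C3 was higher in 5FU than in normal growth (0.32 ± 0.075, adjusted p = 0.0012). The direction for H4C3 therefore turns with the baseline.

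Under 5FU, H2BC14 and 4 other histone genes were higher in shCDK8 than in shControl cells, and the others did not pass the test. Of 56 genes 5 were higher and 0 lower (adjusted p under 0.05, limma; 3.50% of all genes were called, 1.59% higher and 1.91% lower), with a median difference of 0.25. H2BC14 measured 10.17 and 10.20 in shControl and 11.44 and 11.71 in shCDK8 (1.39 ± 0.098, adjusted p = 0.0035), so its shCDK8 arrays lay above shControl but below all DMSO arrays. H2BC12 measured 9.33 and 9.42 against 10.39 and 10.21 (0.93 ± 0.15, adjusted p = 0.038). The other genes called were H2AC15 (0.56 ± 0.079), H4C8 (0.51 ± 0.086) and H2BC11 (0.34 ± 0.045). H1-4 (0.29 ± 0.069, adjusted p = 0.10), H2AC21 (0.15 ± 0.15), H3C2 (0.22 ± 0.081) and H4C3 (-0.03 ± 0.056) did not pass. The count of 5 rested on every array: it was 1 without any 1 of the 4 arrays compared, and 13 when all 35 arrays entered the fit. Of the 47 S phase genes 0 were called in this comparison (limma; 7 at an unadjusted p under 0.05), and of the replication-independent histones H1-10 was higher (0.41 ± 0.058).

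In shCDK19 cells under 5FU 0 of 56 histone genes were called (limma; 8 at an unadjusted p under 0.05; 0 by the one-way analysis of variance that the study names; 0.837% of all genes were called, 0.576% higher and 0.261% lower), with a median difference of 0.04. With array medians subtracted 0 histone genes were called, and the calls over all genes went from 106 higher and 48 lower to 166 and 164; with quantile normalization they were 223 and 180. H2BC14 measured 10.25 and 10.33 (0.11 ± 0.098 against shControl, adjusted p = 0.77). Set against shCDK19 directly, shCDK8 cells had 8 histone genes higher and 0 lower (limma; 5.14% of all genes were called, 2.22% higher and 2.92% lower). H2BC14 was 2.43-fold higher (1.28 ± 0.098, adjusted p = 0.0050), and H3C12 measured 8.19 and 8.63 in shCDK8 and 7.35 and 7.31 in shCDK19 (1.08 ± 0.16, adjusted p = 0.026). H2AC15 (0.81 ± 0.079), H4C2 (0.80 ± 0.14), H1-2 (0.68 ± 0.13), H4C8 (0.53 ± 0.086), H3C2 (0.45 ± 0.081) and H2BC11 were the others called. This count also rested on single arrays: it was 0 without either shCDK19 array, and 4 and 1 without shCDK8 replicate 1 and 2.

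In normal growth the genes called were lower in shCDK8 cells instead. Of 56 genes 26 were lower and 0 higher in shCDK8 than in shControl cells (adjusted p under 0.05, limma; 24.9% of all genes were called, 11.4% higher and 13.5% lower), with a median difference of -0.24 (all genes -0.02). Among genes with a mean above 8, 18 of 21 were lower. By class, 2 of 5 H1, 7 of 14 H2A, 4 of 17 H2B, 4 of 8 H3 and 9 of 12 H4 genes fell.

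H2BC13 measured 8.02, 8.07 and 8.19 in shControl and 6.64, 6.85 and 7.0 in shCDK8, the largest fall of the comparison at 2.40-fold (-1.26 ± 0.15, adjusted p = 0.00071, limma). H2AC15 measured 12.07, 11.88 and 11.92 against 10.88, 10.60 and 11.15 (-1.08 ± 0.13, adjusted p = 0.00086). H4C4 measured 10.12, 10.31 and 9.95 against 8.85, 9.55 and 9.36 (-0.87 ± 0.18, adjusted p = 0.0091). None of these 3 genes overlapped between the lines, and the lowest shCDK8 value of H4C4 was on replicate 1, the array that stood apart from its group. H2BC14 measured 13.08, 13.00 and 13.15 in shCDK8 (-0.55 ± 0.049, adjusted p = 0.00017). H4C3 measured 12.41, 12.46 and 12.36 in shControl and 11.56, 11.88 and 11.81 in shCDK8 (-0.66 ± 0.091, adjusted p = 0.0015). H1-4 (-0.16 ± 0.047), H2AC21 (-0.64 ± 0.14) and H3C2 (-0.45 ± 0.056) were lower as well.

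Here S phase genes moved with the histone genes: 41 of 47 were lower and 0 higher (median -0.53), led by the primase subunit PRIM1 (-1.34 ± 0.12) and the helicase subunit MCM2 (-1.0 ± 0.11). Of the histone mRNA factors 10 of 24 were lower, among them SLBP (-0.29 ± 0.066, adjusted p = 0.015) and NPAT (-0.25 ± 0.068, adjusted p = 0.031). The chaperones ASF1B (-0.68 ± 0.084) and CHAF1A (-0.56 ± 0.058) fell, H2AX fell (-0.41 ± 0.042) and CDKN1A rose (0.55 ± 0.070). The part of these changes in the histone values was not tested. In shCDK19 cells 0 of 56 histone genes were called (limma; 3 at an unadjusted p under 0.05; 0 by the one-way analysis of variance; 7.07% of all genes were called, 3.67% higher and 3.40% lower), with a median of -0.01. H2BC14 measured 13.67, 13.60 and 13.62 in shCDK19, overlapping shControl. Directly against shCDK19, 25 genes were lower and 1 higher in shCDK8 cells (26.1% of all genes were called, 12.9% higher and 13.2% lower). The higher gene was H2BC21, which measured 7.92, 8.28 and 8.07 in shCDK8 and 7.58, 7.71 and 7.48 in shCDK19 (0.50 ± 0.099, adjusted p = 0.0079, limma).

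In low glucose H2BC14 and H3C12 were again among the histone genes with the largest falls. In shControl cells 18 of 56 were lower and 2 higher in low than in high glucose (adjusted p under 0.05, limma; 31.2% of all genes were called, 13.9% higher and 17.3% lower), with a median difference of -0.08. The 20 of 56 called (35.7%) lie close to that share of all genes. H2BC14 measured 12.98, 12.99 and 13.09 in high glucose and 11.69, 11.72 and 11.58 in low glucose (-1.36 ± 0.058, adjusted p = 2.7e-07, limma). H3C12 measured 9.52, 9.63 and 9.67 against 8.42, 8.36 and 8.19 (-1.28 ± 0.11, adjusted p = 1.6e-05). H2AC4 (-0.85 ± 0.051), H3C1 (-0.73 ± 0.062) and H2BC13 (-0.67 ± 0.065) followed, and H1-4 was 0.19 lower (-0.19 ± 0.031). H2BC26 (0.35 ± 0.098) and H2BC12 (0.24 ± 0.069) rose. H2AC21 (-0.03 ± 0.065), H3C2 (-0.07 ± 0.050) and H4C3 (-0.08 ± 0.056) did not pass. When array medians were subtracted, the calls over all genes went from 2559 higher and 3179 lower to 4017 higher and 2431 lower, and those of the histone genes to 2 higher and 14 lower. Of the S phase genes 40 of 47 were lower, with MCM4 at -1.28 ± 0.061, and SLBP (-0.32 ± 0.057) and NPAT (-0.43 ± 0.087) were lower.

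Within low glucose, shCDK8 cells had 27 of 56 histone genes lower and 0 higher than shControl cells (adjusted p under 0.05, limma; 22.3% of all genes were called, 12.1% higher and 10.2% lower), with a median of -0.27. The genes called were 2 of 5 H1, 9 of 14 H2A, 7 of 17 H2B, 3 of 8 H3 and 6 of 12 H4 genes. H2BC7 measured 9.42, 9.34 and 9.37 in shControl and 8.43, 8.50 and 8.23 in shCDK8 (-0.99 ± 0.082, adjusted p = 1.6e-05). H2BC14 measured 10.87, 10.85 and 11.02 in shCDK8 (-0.75 ± 0.058), below all 3 shControl arrays in low glucose. H2BC13 (-0.78 ± 0.065), H2BC21 (-0.73 ± 0.15) and H4C4 (-0.66 ± 0.055) were also lower. H4C3 measured 12.69, 12.64 and 12.47 in shControl and 12.01, 11.99 and 11.98 in shCDK8 (-0.60 ± 0.056, adjusted p = 3.7e-05). H1-4 (-0.10 ± 0.031), H2AC21 (-0.38 ± 0.065) and H3C2 (-0.40 ± 0.050) completed the class representatives, all lower. Of the S phase genes 6 of 47 were lower and 0 higher (median -0.12), and neither SLBP (-0.06 ± 0.057) nor NPAT (-0.13 ± 0.087) passed the test.

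shCDK19 cells in low glucose had 3 histone genes higher and 2 lower than shControl cells (limma; 19.9% of all genes were called, 9.11% higher and 10.8% lower), with a median of 0.00. The share of histone genes called lies below that of all genes. H3C12 (0.39 ± 0.11), H2BC13 (0.25 ± 0.065) and H2BC14 (0.21 ± 0.058) were higher, and H2BC21 (-0.67 ± 0.15) and H2BC12 (-0.23 ± 0.069) lower. H2BC21 was uneven in the shCDK19 line, at 7.26, 7.98 and 7.79, against 8.36, 8.28 and 8.42 in shControl. The count was 1 without shCDK19 replicate 1 or shControl replicate 3, 2 without replicate 2 of either line and 3 without shControl replicate 1. In the direct comparison 26 histone genes were lower in shCDK8 than in shCDK19 cells and 0 higher (26% of all genes were called, 14.7% higher and 11.2% lower), led by H2BC7 (-1.04 ± 0.082), H2BC13 (-1.03 ± 0.065) and H2BC14 (-0.96 ± 0.058). Of the S phase genes 18 of 47 were higher in shCDK19 than in shControl cells.

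**Figure D3:**
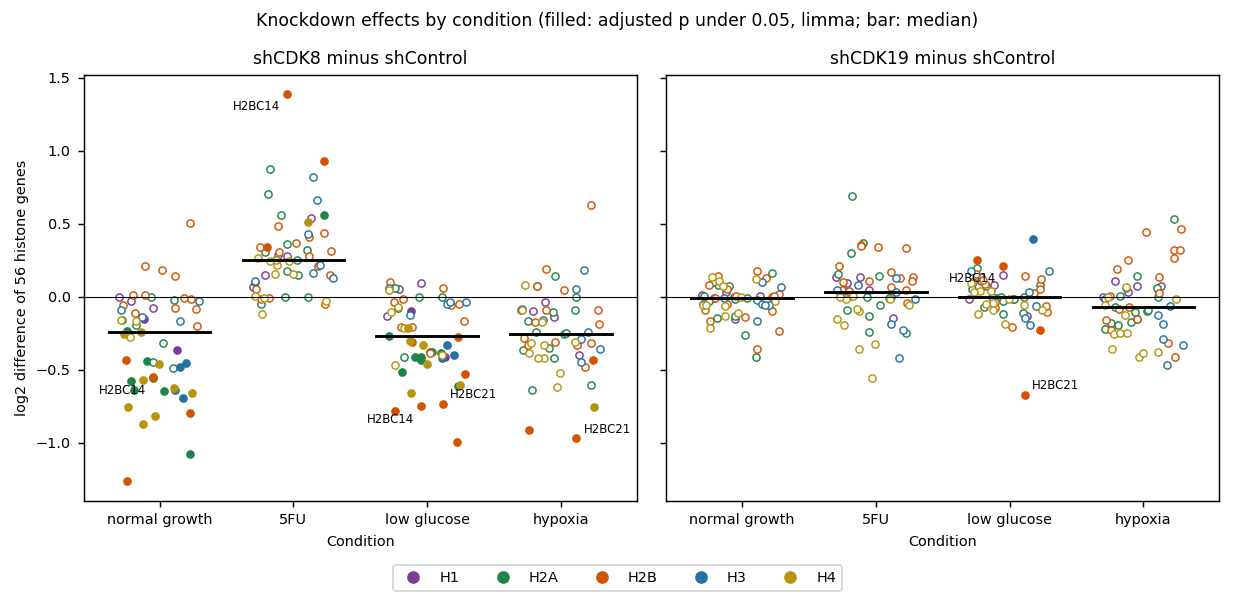
Difference in log2 level between each knockdown line and shControl (vertical axis) for the 56 histone genes in the 4 conditions (horizontal axis), coloured by class, with filled points past the test and a bar at the median; H2BC14 and H2BC21 are named where they passed. In shCDK8 cells the medians are -0.24, 0.25, -0.27 and -0.26 in normal growth, 5FU, low glucose and hypoxia, and in shCDK19 cells they stay between -0.07 and 0.04.

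In hypoxia, shCDK8 cells had 4 histone genes lower and 0 higher than shControl cells (adjusted p under 0.05, limma; 7.30% of all genes were called, 4.81% higher and 2.49% lower), with a median of -0.26 (all genes -0.07). In both directions together, the share of histone genes called lies close to that of all genes. H4C3 measured 12.29 and 12.42 in shControl and 11.59 and 11.60 in shCDK8 (-0.76 ± 0.082, adjusted p = 0.016). H2BC21 measured 8.42 and 8.73 against 7.47 and 7.74 (-0.97 ± 0.15, adjusted p = 0.032). H2BC13 (-0.91 ± 0.095) and H2BC8 (-0.43 ± 0.074) were the others called. H1-4 (-0.04 ± 0.075), H2AC21 (-0.25 ± 0.13), H2BC14 (-0.31 ± 0.19) and H3C2 (-0.25 ± 0.11) did not pass. The shControl arrays here were the pair that agreed least: H2AC15 measured 11.11 and 9.62 and H3C12 8.09 and 9.0. Without shControl replicate 1 and 2 the count was 9 and 16, without either shCDK8 array it was 0, and in a fit of all 35 arrays it was 19. With quantile normalization 6 histone genes were lower and 0 higher, and the calls over all genes went from 885 higher and 458 lower to 988 and 782.

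In shCDK19 cells in hypoxia 0 of 56 genes were called (limma; 5 at an unadjusted p under 0.05; 0 by the one-way analysis of variance; 0.228% of all genes were called, 0.196% higher and 0.0326% lower), and 6 were called without shControl replicate 2. Against shCDK19, shCDK8 cells had 5 genes lower and 0 higher, together a smaller share than among all genes (12.4% of all genes were called, 7.26% higher and 5.09% lower): H2BC21 (-1.10 ± 0.15), H4C3 (-0.74 ± 0.082), H2BC13 (-0.69 ± 0.095), H2BC4 (-0.65 ± 0.12) and H1-2 (-0.48 ± 0.096). This count was 0 without any 1 of the 4 arrays.

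Hypoxia could be set only against the normal growth arrays, another experiment, so oxygen and experiment cannot be told apart. In shControl cells 20 of 56 histone genes were lower and 4 higher (adjusted p under 0.05, limma, all 35 arrays; 47.8% of all genes were called, 21.1% higher and 26.7% lower), with a median of -0.15. In both directions together, the share of histone genes called lies a little below that of all genes. H2AC15 (-1.59 ± 0.24), H3C12 (-1.05 ± 0.19), H3C1 (-0.98 ± 0.092), H2AC17 (-0.95 ± 0.16) and H2BC14 (-0.86 ± 0.099) were lowest; the shControl hypoxia arrays disagreed on the first pair. H1-4 (-0.17 ± 0.045) and H3C2 (-0.33 ± 0.069) were lower, while H2AC21 (-0.29 ± 0.13) and H4C3 (-0.06 ± 0.075) did not pass. H2BC21 rose, from 7.90, 7.91 and 8.04 to 8.42 and 8.73 (0.62 ± 0.15, adjusted p = 0.0014), with H2BC3 (0.51 ± 0.12) and H2BC8 (0.40 ± 0.10); the fourth higher gene, H2AC8, lay at the floor on most arrays. With array medians subtracted, the calls over all genes went from 3879 higher and 4922 lower to 5909 and 4282, the median of all genes to 0.115 and the histone calls to 6 higher and 16 lower. Fitted on its own groups the comparison called 11 histone genes. S phase genes were lower in 43 of 47 cases, and SLBP and NPAT were 0.38 and 0.86 lower (-0.38 ± 0.082 and -0.86 ± 0.10).

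The same contrast called 23 lower and 2 higher in shCDK19 cells (31.3% of all genes were called, 11.1% higher and 20.2% lower) and 7 lower and 1 higher in shCDK8 cells (9.10% of all genes were called, 3.52% higher and 5.57% lower). In shCDK19 cells H2BC21 rose from 7.58, 7.71 and 7.48 to 8.71 and 8.71 (1.12 ± 0.15, adjusted p = 1.3e-06, limma). In shCDK8 cells H2BC21 went from 7.92, 8.28 and 8.07 to 7.47 and 7.74 (-0.49 ± 0.15, adjusted p = 0.037). H2BC21 thus rose in shControl and shCDK19 cells and fell in shCDK8 cells. H2BC14 was lower in shCDK19 cells (-1.02 ± 0.099) and in shCDK8 cells (-0.62 ± 0.099). In shCDK19 cells, array medians subtracted gave 3 histone genes higher and 17 lower, and the calls over all genes went from 2049 higher and 3716 lower to 3107 and 2963. Without shCDK19 hypoxia replicate 1 the shCDK19 count was 15. The shCDK8 count was 3 and 2 without hypoxia replicate 1 and 2, 5 and 4 without normal growth replicate 2 and 3, and 0 when only these groups were fitted.

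High glucose, another control of its own experiment, stood below normal growth in 17 histone genes and above it in 2 (limma; 30.4% of all genes were called, 18.1% higher and 12.3% lower). In both directions together, the share of histone genes called lies close to that of all genes. The media differ between high glucose and normal growth, and medium and experiment cannot be told apart. H2AC15 measured 10.44, 10.26 and 10.62 in high glucose (-1.51 ± 0.21 against normal growth) and H2BC7 9.77, 9.93 and 10.03 (-1.35 ± 0.12). H2BC9 and H2BC13 were each 0.92 lower (-0.92 ± 0.12 and -0.92 ± 0.11), and H4C14 was 0.79 lower (-0.79 ± 0.10). H4C3 (0.27 ± 0.067) and H2AC12 (0.38 ± 0.14) were higher, and H1-4 (-0.11 ± 0.041), H2AC21 (-0.32 ± 0.12), H2BC14 (-0.61 ± 0.089) and H3C2 (-0.28 ± 0.062) lower. With array medians subtracted the calls over all genes went from 3336 higher and 2257 lower to 2636 and 3240, and the histone calls to 1 higher and 22 lower.

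**Figure D4:**
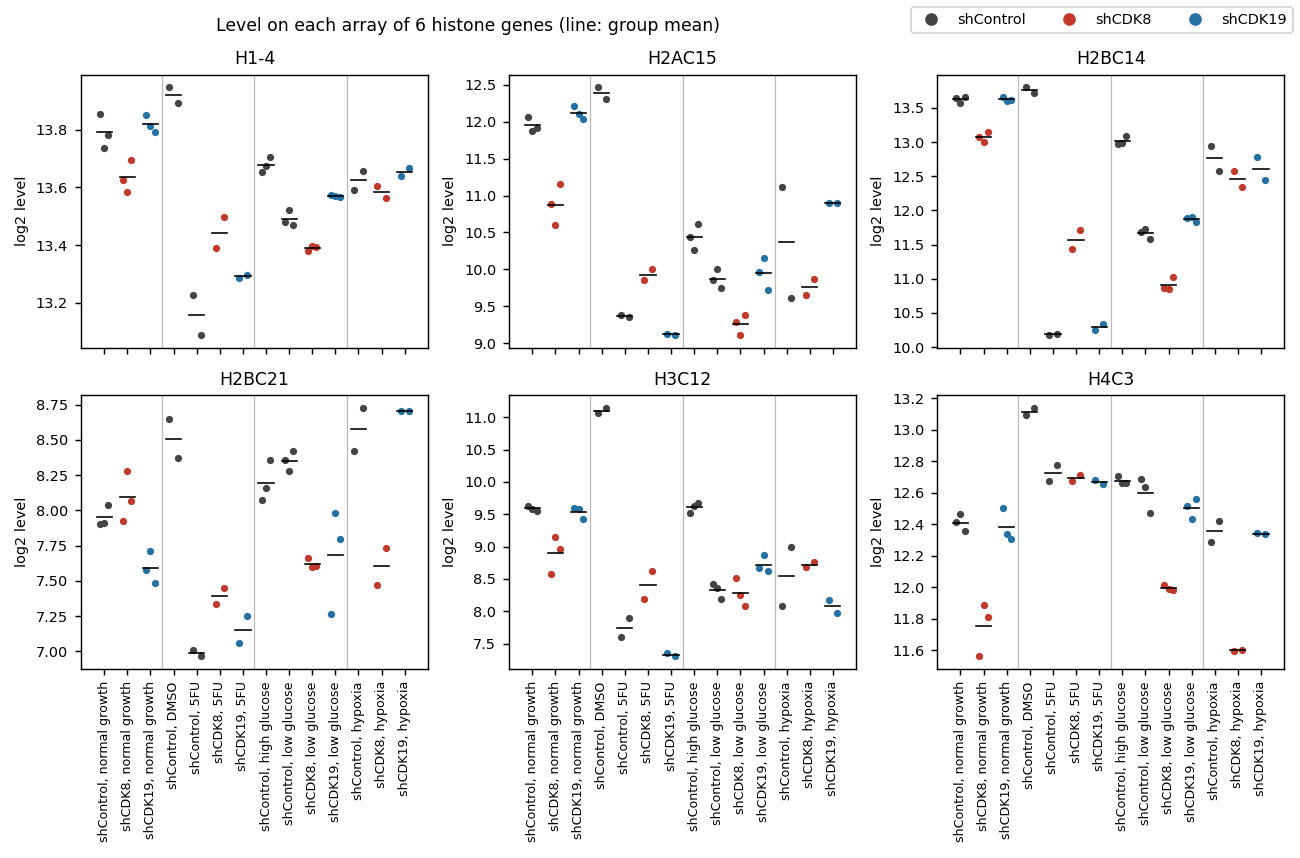
Log2 level on every array (points) and group mean (lines) of H1-4, H2AC15, H2BC14, H2BC21, H3C12 and H4C3 in the 14 groups along the horizontal axis, coloured by line. H2BC14 falls to 10.17 and 10.20 in shControl cells in 5FU while the shCDK8 arrays stand at 11.44 and 11.71; H4C3 is lowest in shCDK8 cells in normal growth, low glucose and hypoxia; H2BC21 is highest in shControl and shCDK19 cells in hypoxia.

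Whether the shCDK8 effect differed between conditions was tested as a difference of differences, in which a shift between experiments common to the lines cancels. A shift that differs between the lines does not cancel, and it cannot be told apart from a response to the condition. From normal growth to 5FU the effect was more positive in 28 histone genes and more negative in 0 (adjusted p under 0.05, limma, all 35 arrays; 11.9% of all genes were called, 6.25% higher and 5.62% lower), with a median of 0.48 (all genes 0.03). These were 2 of 5 H1, 9 of 14 H2A, 4 of 17 H2B, 5 of 8 H3 and 8 of 12 H4 genes. In H2BC14 the effect went from -0.55 in normal growth to 1.39 in 5FU, a change of 1.94 ± 0.14 (adjusted p = 8.8e-10). The H2BC14 levels in normal growth lie near the highest value the files hold, and whether this shortens the -0.55 was not tested. H2AC15 changed by 1.64 ± 0.34, H3C12 by 1.36 ± 0.26, H2AC4 by 1.34 ± 0.13 and H3C10 by 1.30 ± 0.17. The remaining representatives were called too: H1-4 (0.44 ± 0.064), H2AC21 (0.79 ± 0.18), H3C2 (0.67 ± 0.097) and H4C3 (0.63 ± 0.11). The 10 arrays of the groups compared were each left out in turn, and the range of counts is given at the end. Of the S phase genes 31 of 47 moved the same way and 0 the other, with PRIM1 at 1.19 ± 0.18, and H2AX changed by 0.80 ± 0.077. Of the S phase genes 41 had been lower in shCDK8 cells in normal growth, and 0 were called within 5FU.

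From normal growth to low glucose the shCDK8 effect changed in 5 histone genes (limma; 12.8% of all genes were called, 7.78% higher and 5.06% lower). H2BC21 went from 0.14 to -0.73 (-0.87 ± 0.19, adjusted p = 0.0018), and H2BC12 (-0.78 ± 0.20) and H2BC5 (-0.52 ± 0.15) also became more negative. H2AC25 (0.50 ± 0.16) and H2BC13 (0.48 ± 0.16) became more positive. The 3 genes that turned more negative are among the 8 members listed as also making polyadenylated transcripts. The others listed were not called: H2BC4 (-0.33), H2BC11 (-0.22), H1-2 (-0.04), H2AC6 (0.03) and H4C8 (0.23). The list was drawn up with earlier results of these data known, so the overlap is not a test. H1-4 (0.06 ± 0.057), H2AC21 (0.26 ± 0.16), H2BC14 (-0.20 ± 0.13), H3C2 (0.05 ± 0.087) and H4C3 (0.06 ± 0.095) did not pass. The count was 3 without replicate 3 of any of the 4 groups, with quantile normalization and with only these groups fitted.

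From normal growth to hypoxia the shCDK8 effect changed in 4 histone genes (limma; 11.5% of all genes were called, 9.06% higher and 2.45% lower). H2BC21 became more negative (-1.11 ± 0.21, adjusted p = 0.00099) and H3C12 (0.87 ± 0.26), H3C1 (0.69 ± 0.13) and H4C16 (0.33 ± 0.11) more positive. The representatives H1-4 (0.12 ± 0.064), H2AC21 (0.39 ± 0.18), H2BC14 (0.24 ± 0.14), H3C2 (0.21 ± 0.097) and H4C3 (-0.10 ± 0.11) did not pass. The count was 12 without shControl hypoxia replicate 2, 7 without shCDK8 normal growth replicate 2 and 2 without either shCDK8 hypoxia array, without shCDK8 normal growth replicate 1 and without shControl normal growth replicate 1 or 2; it was 0 when only these groups were fitted. With array medians subtracted 2 genes became more positive and 3 more negative, and the calls over all genes went from 1667 higher and 451 lower to 1245 and 598; with quantile normalization they were 1401 and 885. For shCDK19 the effect changed in 0 of 56 genes between normal growth and 5FU, low glucose or hypoxia (limma; 7, 2 and 10 genes at an unadjusted p under 0.05; 0 by the one-way analysis of variance; 4.0%, 1.79% and 2.08% of all genes were called). Those shares were 2.18% higher and 1.81% lower in 5FU, 0.989% and 0.799% in low glucose and 1.52% and 0.560% in hypoxia. The calls over all genes for 5FU went from 402 higher and 334 lower to 273 and 400 with array medians subtracted, and those for hypoxia from 280 higher and 103 lower to 268 and 258 with quantile normalization. Without shControl hypoxia replicate 2 the hypoxia count was 11, and it was 1 without shControl hypoxia replicate 1. The 5FU count was 1 without shControl 5FU replicate 1 or shCDK19 normal growth replicate 1, and the low glucose count was 1 without shCDK19 normal growth replicate 1.

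**Figure D5:**
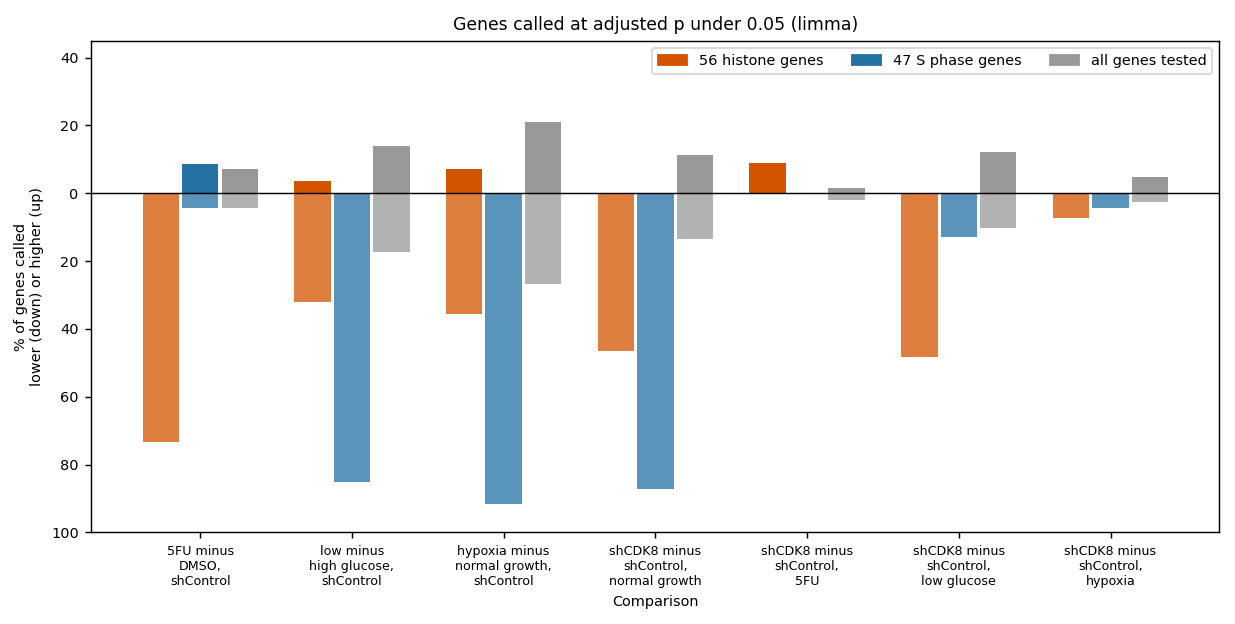
Share of genes called higher (up) and lower (down) in 7 comparisons among the 56 histone genes, the 47 S phase genes and all 18404 genes tested (vertical axis, percent; limma, adjusted p under 0.05). In 5FU against DMSO 73.2% of histone genes were lower while 2 of 47 S phase genes were, whereas 40 and 43 of 47 S phase genes were lower in low glucose and in hypoxia in shControl cells and 41 in shCDK8 cells in normal growth.

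The genes did not all follow the same course over the 14 groups. H1-4, H1-2, H2BC14 and H2AC15 followed the median of the other members closely (Pearson r = 0.968, 0.937, 0.935 and 0.929 over 14 group means). Among genes with a mean above 8, H4C3 (0.157) and H2BC12 (0.287) followed it least; among dimmer genes, H4C7 (-0.243), H1-5 (-0.12) and H2BC10 (-0.043) did. These values are descriptions over group means that share the scaling of their arrays. H4C3 was lowest in hypoxia with shCDK8, at 11.59 and 11.60, then in normal growth with shCDK8, which overlapped it, then in low glucose with shCDK8 at 12.01, 11.99 and 11.98. Its other groups ran from 12.29 upwards, with the 3 lines in 5FU inside 12.66 to 12.78 and DMSO alone above 13. H2BC12 was highest in normal growth with shCDK8 (10.34, 11.14 and 10.88), where it did not pass the test, and lowest in shControl cells in 5FU. H2BC21 was lowest in the 3 lines in 5FU, which did not overlap each other, and highest in shCDK19 cells in hypoxia, which overlapped shControl in hypoxia.

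Of genes outside the family, those whose 14 group means ran most like the median histone gene were SLC25A40 (Pearson r = 0.870 over 14 groups), a mitochondrial carrier, BUB1B of the spindle checkpoint (0.869), the mitotic kinesin KIF14 (0.854), the mitotic kinase AURKA (0.848), H2AX (0.837), the spindle protein ASPM (0.831), the mitochondrial isoleucyl tRNA synthetase IARS2 (0.830) and the DNA glycosylase NEIL3 (0.821). These genes were picked for likeness from all genes above the floor on all arrays, so the values describe the choice. H2AX is a histone gene that the symbol rule leaves out. It was lower in shCDK8 than in shControl cells in normal growth (-0.41 ± 0.042) and in low glucose (-0.26 ± 0.052, adjusted p = 0.0044, limma). It rose by 0.14 ± 0.054 in DMSO relative to normal growth.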

How the data were processed

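The authors deposited 1 log2 level per array row and array; per the submitters' processing notes Partek was used, and the sources used here give no version, normalization or genome build. All 35 arrays share 1 lowest and 1 highest value. The deposited log2 values were used as they stand. Rows with exactly 1 gene symbol (19158 of 32321) were kept, and each gene was represented by its row of highest mean, which left 18404 genes. Comparisons within an experiment were fitted with limma 3.58.1 in R 4.3.3 on that experiment's arrays, and comparisons across experiments on all 35 arrays. Tests were two-sided, with Benjamini-Hochberg adjustment over all 18404 genes and a threshold of 0.05. The code was tested on simulated data. No arrays were left out, and no 2 were identical; precision is limited by the 2 or 3 arrays per group.

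Genes were named by a rule: the gene of each class with the highest mean, up to 5 called genes per direction whose arrays do not overlap, up to 4 called genes of each other list, a few fixed genes such as SLBP and NPAT, and up to 8 genes of similar pattern. A gene named otherwise because few were called, or as a pair or a contrast, was chosen after its values were seen. The members and lists were chosen with earlier results of these data known. Alternatives were array medians subtracted, quantile normalization and leaving out dim genes, those at the floor on most of the arrays fitted. Others were the one-way analysis of variance that the study names, other sets of arrays in the fit, a replicate block and each array of the groups compared left out. The analysis of variance was run as a t-test of each contrast on the gene's own pooled variance, not as an F test. The comparison of 5FU with normal growth was added after the data were seen.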

Additional observations from a re-analysis of the deposited data

Results flagged for a closer look

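Conditions come from different experiments, and a shift between experiments that differs between lines cannot be told apart from an effect of the condition. The difference between the shCDK8 and shControl lines was set against that in normal growth by a difference of differences with limma. Between 5FU and normal growth it changed in 28 of the 56 histone genes (11.9% of all genes). Between low glucose and normal growth it changed in 5 of 56 (12.8% of all genes) and between hypoxia and normal growth in 4 of 56 (11.5% of all genes); both counts lie below the share over all genes and are no result about the histone genes as a group. When only the groups compared were fitted, the count for hypoxia was 0. The single largest change toward 5FU was that of H2BC14, at 1.94 on the log2 scale. The change in H2BC21 was -0.87 toward low glucose and -1.11 toward hypoxia, where the shCDK8 line moved from overlapping shControl to lying below it.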

How the results depend on the processing

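Counts are of the 56 histone genes called. Here and in the sections above, most counts under an alternative stand without the share of all genes called under it. A changed count is therefore no result about the histone genes as a group. Among the alternatives with all arrays kept, these differed from the reported count by more than 1.5 times; where the construction does not show the cause, the cause was not tested. Array medians subtracted gave 12 for shCDK8 against shControl in 5FU, and leaving out dim genes gave 11 there. Quantile normalization gave 3 for shCDK19 against shControl in low glucose, 3 for the change of the shCDK8 effect in low glucose and 1 for the change of the shCDK19 effect in 5FU. The one-way analysis of variance gave 2 for shCDK8 against shControl in 5FU, 3 for shCDK8 against shCDK19 in 5FU and 1 for the latter pair in hypoxia. All 35 arrays in 1 fit, which brings more arrays to the error estimate, gave 13, 1 and 16 in 5FU for shCDK8 against shControl, shCDK19 against shControl and shCDK8 against shCDK19, 19, 3 and 14 for these pairs in hypoxia, and 1 for shCDK19 against shControl in low glucose. Fitting only the groups compared gave 11 for hypoxia against normal growth in shControl and 0 in shCDK8, 3 and 0 for the change of the shCDK8 effect in low glucose and hypoxia, and 2 for that of the shCDK19 effect in 5FU. The fall of H4C3 in 5FU became a rise of 0.32 with normal growth as the baseline.

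Whether replicate numbers pair the arrays could not be settled. Arrays with the same number deviated together (r over 0.1) in 2 of 9 pairs in normal growth, 6 of 12 in the drug experiment, 2 of 18 in the glucose experiment and 2 of 6 in hypoxia. With 2 arrays per group in the drug and hypoxia experiments, the pairs there are not independent of each other. With the replicate number as a block the counts were 1 for shCDK8 against shControl and 4 for shCDK8 against shCDK19 in 5FU, and 1 and 3 for these pairs in hypoxia; no other count moved by over 1.5 times under the block.

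Leaving out 1 array at a time gave 24 to 40 genes for 5FU against DMSO, 1 to 1 for shCDK8 against shControl and 0 to 4 for shCDK8 against shCDK19 in 5FU, and 1 to 5 for shCDK19 against shControl in low glucose. In hypoxia it gave 0 to 16, 0 to 6 and 0 to 0 for shCDK8 against shControl, shCDK19 against shControl and shCDK8 against shCDK19. Hypoxia against normal growth gave 16 to 27 in shControl, 2 to 12 in shCDK8 and 15 to 25 in shCDK19. The changes of the shCDK8 effect gave 20 to 28 in 5FU, 3 to 5 in low glucose and 2 to 12 in hypoxia, and those of the shCDK19 effect 0 to 1, 0 to 1 and 0 to 11. Of 215 values of named genes, 50 lost the call under at least 1 alternative that kept all arrays, and 1, that of H4C3, reversed.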
